A study of Mus musculus with 36 samples.

Results

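The chemokine system of the mouse liver was followed through the genes whose symbols name a chemokine ligand (Ccl, Cxcl, Cx3cl or Xcl with a number) or a chemokine receptor (Ccr, Cxcr, Cx3cr or Xcr with a number). This rule found 52 genes among the 18591 genes of the table, 34 ligands and 18 receptors. Liver RNA of C57BL/6 mice had been sequenced in 12 libraries, 3 in each of 4 groups, and all mice of these groups received doxycycline at 50 mg/L in drinking water, started at an age of 1 month or given to nursing mothers, without a record of which for each library. The control group was of wild type genotype. YAP Tg mice carried a YAP transgene, Tet1 KO YAP Tg mice, here called the knockout group, carried the transgene on a Tet1 -/- genotype, and a further group of Tet1 -/- YAP Tg mice was also injected with decitabine at 0.5 mg/kg daily for 10 days from an age of 1 month. The labels used here give neither the driver of the transgene, nor its species, nor the deleted part of Tet1, and they do not say whether the libraries of a group came from separate animals. There was no Tet1 -/- group without the transgene and no control group with decitabine.

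Chemokines are small secreted proteins that guide leukocytes along gradients through receptors coupled to inhibitory G proteins. In the liver, ligands of CCR2, CCR1 and CX3CR1 are known for drawing in or retaining monocytes and macrophages, ligands of CXCR2 for drawing in neutrophils, ligands of CXCR3 for drawing in activated T and NK cells, and CXCL12, the ligand of CXCR4, is made mainly by stromal and endothelial cells. YAP is the co-activator restrained by the Hippo pathway that acts with TEAD factors, TET1 is a dioxygenase that starts the removal of DNA methylation, and decitabine blocks the enzymes that maintain it.

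Levels are normalised reads, which are read numbers scaled for library size. Levels between genes are compared per kilobase of gene length only. The recovered depth was 19082417 to 31713758 reads per library, so that 1 read was worth 0.0269 to 0.0594 normalised reads. Libraries of a group differed little beyond counting error in YAP Tg (coefficient of variation 0.0137 to 0.0409) and the knockout group (0.0265 to 0.0328), and more in the decitabine group (0.177 to 0.283), and control library 2 stood 0.127 to 0.133 from the other control libraries while those differed by 0.0258. The p-values therefore measure the spread between libraries that may be technical repeats. The targeted genes did not check the labels. Tet1 read 0.935, 0.756 and 0.356 in control, 9.899, 8.59 and 8.97 in YAP Tg, 1.25, 0.954 and 0.586 in the knockout group and 1.596, 1.72 and 3.51 with decitabine, so the knockout libraries overlapped the controls, which were themselves low. Yap1 read 58.6, 47.1 and 58.8, 27.6, 32.1 and 29.9, 48.5, 52.5 and 52.4 and 87.98, 174 and 146 in the same order, and was lower, not higher, in YAP Tg than in control.

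Promoters from RefSeq (GRCm38.p6) covered 250 bases before to 50 bases after the start of 37 of the 52 genes. They were searched on both strands for GGAATG, the element of the TEAD factors with which YAP works, for the NF-kB element (GGGA, any base, then TTTCC), for the STAT element (TTC, any 3 bases, then GAA), for the interferon response element (TTTC, any 2 bases, then TTTC) and for the PU.1 element GAGGAAGT. The last 3 motifs were added to the TEAD and NF-kB motifs first planned. The TEAD element stood in 5 of 37 promoters (13.5%), against 14.6% of all 27025 promoters of the same length. The NF-kB element stood in 3 (8.11%; Ccr3, Cxcl1 and Cxcl2), against 0.385% of all promoters. The STAT element stood in 4 (10.8%, against 8.47%), the interferon element in 3 (8.11%, against 3.49%; Ccl19, Cxcl10 and Cxcl14) and the PU.1 element in 1 (2.70%, against 3.28%). The letters of one element can overlap those of another, and a match describes the sequence only. Only these letters were searched, so other forms of the same elements were not counted.

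The sequences of 4 neighbouring CXC ligand genes on chromosome 5 are shown because in each neighbouring pair 1 gene was called in a comparison where the other was not; whether their changes differ was not tested. They were chosen after their levels and motif matches were seen, so the matches among them support nothing. Cxcl1 (chr5:90890995-90891294, plus strand) and Cxcl2 (chr5:90903649-90903948, plus strand) are neighbours that both hold the NF-kB element, at base -71 and base -97 from the gene start. Of the letters searched, Cxcl10 (chr5:92348840-92349139, minus strand) holds only the interferon element, at base -213, read on the opposite strand. Its neighbour Cxcl9 (chr5:92328030-92328329, minus strand) holds none of the 5 motifs in this window. Capitals mark the matched motif.
Cxcl1: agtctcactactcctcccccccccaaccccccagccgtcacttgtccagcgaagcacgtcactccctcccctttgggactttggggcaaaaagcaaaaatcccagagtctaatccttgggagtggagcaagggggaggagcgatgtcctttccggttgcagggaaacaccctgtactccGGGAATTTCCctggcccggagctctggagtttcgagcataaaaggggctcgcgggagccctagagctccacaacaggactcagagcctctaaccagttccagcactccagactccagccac
Cxcl2: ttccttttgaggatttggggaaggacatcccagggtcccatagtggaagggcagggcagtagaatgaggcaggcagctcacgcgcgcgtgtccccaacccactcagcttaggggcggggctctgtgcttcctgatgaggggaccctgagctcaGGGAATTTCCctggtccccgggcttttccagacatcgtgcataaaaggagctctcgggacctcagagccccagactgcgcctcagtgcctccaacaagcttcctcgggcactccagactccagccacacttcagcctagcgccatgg
Cxcl10: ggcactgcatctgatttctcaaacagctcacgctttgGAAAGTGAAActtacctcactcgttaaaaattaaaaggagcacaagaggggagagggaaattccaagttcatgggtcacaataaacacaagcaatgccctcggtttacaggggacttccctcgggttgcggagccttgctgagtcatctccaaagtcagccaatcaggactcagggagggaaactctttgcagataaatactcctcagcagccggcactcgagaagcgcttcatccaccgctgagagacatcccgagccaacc
Cxcl9: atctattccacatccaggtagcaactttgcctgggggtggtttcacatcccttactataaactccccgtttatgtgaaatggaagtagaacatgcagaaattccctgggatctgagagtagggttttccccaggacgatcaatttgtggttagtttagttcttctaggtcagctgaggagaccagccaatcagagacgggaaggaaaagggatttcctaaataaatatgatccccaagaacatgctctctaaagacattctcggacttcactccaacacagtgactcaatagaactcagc
The promoters of the chemokine genes held few CpG dinucleotides, the substrate of DNA methylation. Their median was 4 per promoter, against 7 over all promoters, and 27.0% of them held at least 10, against 43.9% of all. The promoters of Ccr1, Ccr2 and Ccr3 held 1 CpG each, those of Ccl6 and Ccl9 held 2 each, and that of Cx3cr1 held 5. The promoters of Cxcr4 and Cxcl12 held 20 each and that of Ccl25 held 52. Methylation itself was not analysed here.

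With the YAP transgene, the CC ligands Ccl2, Ccl6, Ccl9 and Ccl24 and the receptors Ccr2, Cx3cr1 and Cxcr4 were higher, and the CXCR3 ligands Cxcl9 and Cxcl11 and the stromal ligand Cxcl12 were lower. Of 31 members that passed the filter on low values (at least 0.5 normalised reads in at least 3 of the 9 libraries without decitabine), 24 were called changed between YAP Tg and control, 18 higher and 6 lower, at an adjusted p below 0.05 (limma on log2(level + 0.5), Benjamini and Hochberg). Of all 13730 genes tested, 70.5% were called, 36.1% higher and 34.5% lower. The members' share called (77.4%) lay near that background, while their share called higher (58.1%) lay above it and their share called lower (19.4%) below it. The median log2 fold change was 0.80 over the tested members and 0.01 over all tested genes. Of the 12 receptors tested, 8 were higher and 0 lower, and of the 19 ligands tested, 10 were higher and 6 lower. A member that passed the filter only through the group where it was high had to differ, which holds for 3 of the 8 receptors called higher (Ccr1, Ccr1l1 and Ccr3, which reached 0.5 in the 3 YAP Tg libraries only). The ligand Cx3cl1 is limited in the same way, because beside YAP Tg only knockout library 3 reached 0.5. The other 21 members were too low to be tested, none of them above 0.684 normalised reads in any of the 9 libraries. These are bulk samples, in which fewer cells of a type and less RNA per cell cannot be told apart.

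Among ligands, Ccl9 had the highest level per kilobase in control, 35.3 normalised reads per kilobase or 31.1% of the summed ligand level, followed by Cxcl12 with 30.95 (27.3%) and Cxcl9 with 12.3 (10.8%). In YAP Tg, Ccl9 (90.7, 40.2%) was followed by Ccl6 (56.1, 24.8%) and Ccl24 (15.6, 6.91%). The recovered lengths of Ccl6, Ccl24 and Cxcl9 are less certain than those of Ccl9 and Cxcl12 and may be short by a whole factor. The summed level of the 18 receptors was 15.8, 16.2 and 18.8 normalised reads in control and 83.4, 83.3 and 89.9 in YAP Tg. The summed level of the 34 ligands was 429, 362 and 439 in control and 542, 544 and 576 in YAP Tg.

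CCL9 and CCL6 are mouse CC chemokines that bind CCR1, and their genes lie side by side on chromosome 11 (83572917 to 83578636 and 83587886 to 83593087, mm10, as for all positions). Ccl9 read 106, 107 and 104 normalised reads in control and 266, 269 and 284 in YAP Tg (log2 1.36 ± 0.05, adjusted p = 1.60e-10; errors of log2 fold changes are SE, n = 3 libraries per group). Ccl6 read 10.6, 14.6 and 10.6 in control and 79.5, 79.3 and 82.8 in YAP Tg (log2 2.72 ± 0.10, adjusted p = 4.92e-10). In both genes every YAP Tg library lay far above every control library. The share of all genes whose groups do not overlap was not computed, so statements on overlap describe single genes only. CCL24, a CCR3 ligand known for drawing in eosinophils, was measured at 3.21, 5.12 and 3.68 in control and 19.8, 19.9 and 20.6 in YAP Tg (log2 2.22 ± 0.17, adjusted p = 2.67e-07). Ccl2, the main monocyte attractant through CCR2, read 0.351, 0.801 and 0.475 and 3.28, 3.09 and 2.66 in the same groups (log2 1.77 ± 0.18, adjusted p = 3.56e-06). Neither gene's groups overlapped.

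Among CXC and CX3C ligands, Cxcl16, the transmembrane ligand of CXCR6, read 7.83, 7.43 and 9.02 in control and 26.2, 24.4 and 23.99 in YAP Tg (log2 1.56 ± 0.09, adjusted p = 1.53e-08). Cxcl1, a neutrophil attractant through CXCR2, read 2.92, 3.203 and 3.56 and 12.2, 11.5 and 11.1 (log2 1.70 ± 0.12, adjusted p = 7.70e-08). Cx3cl1, the membrane-bound ligand of CX3CR1, read 0.175, 0.222 and 0.178 and 1.08, 1.24 and 1.24 (log2 1.28 ± 0.16, without a p because it passed the filter through YAP Tg). In all 3 genes the YAP Tg libraries lay above the controls without overlap. Smaller rises were called for Ccl5, a ligand of CCR1 and CCR3 (log2 0.96, adjusted p = 0.00225), for Cxcl13, the B cell attractant (log2 0.80, adjusted p = 9.66e-04), and for Cxcl14 (log2 0.54, adjusted p = 0.00628). The level of Cxcl13 was 1.87, 1.42 and 2.08 in control and 2.84, 3.57 and 4.08 in YAP Tg, and that of Cxcl14 was 0.7598, 0.623 and 1.01 and 1.404, 1.31 and 1.42.

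The 6 ligands that were lower in YAP Tg included both outer genes of the CXCR3 ligand cluster. Cxcl9, an interferon-inducible CXCR3 ligand, read 35.7, 30.5 and 40.95 in control and 8.28, 10.1 and 11.2 in YAP Tg (log2 -1.81 ± 0.12, adjusted p = 4.85e-08). Its neighbour Cxcl11 read 0.468, 0.712 and 0.653 and 0.108, 0.172 and 0.109 (log2 -0.81 ± 0.15, adjusted p = 4.89e-04). Cxcl10, which lies between them and acts on the same receptor, read 4.09, 5.96 and 4.04 and 4.46, 4.19 and 3.83, and was not called (log2 -0.14, adjusted p = 0.394). So Cxcl9 and Cxcl11 were lower in every YAP Tg library while the Cxcl10 groups overlapped; whether the changes of the 3 genes differ from each other was not tested. The other genes lower in YAP Tg were Cxcl12 at 243, 174 and 248 in control and 108, 108 and 119 in YAP Tg (log2 -0.97 ± 0.11, adjusted p = 1.05e-05), and Ccl25, the ligand of the gut-homing receptor CCR9, at 4.56, 3.74 and 4.39 and 1.33, 1.58 and 1.86 (log2 -1.18 ± 0.13, adjusted p = 6.23e-06). Ccl19, a CCR7 ligand, read 0.701, 0.712 and 0.415 and 0.144, 0.103 and 0.365 (log2 -0.66, adjusted p = 0.0234). The groups did not overlap for any of these 3. Ccl27a was also lower (log2 -0.44, adjusted p = 0.00461), and Ccl19, Ccl21a and Ccl27a have near-identical copies, so their levels are uncertain.

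**Figure D1:**
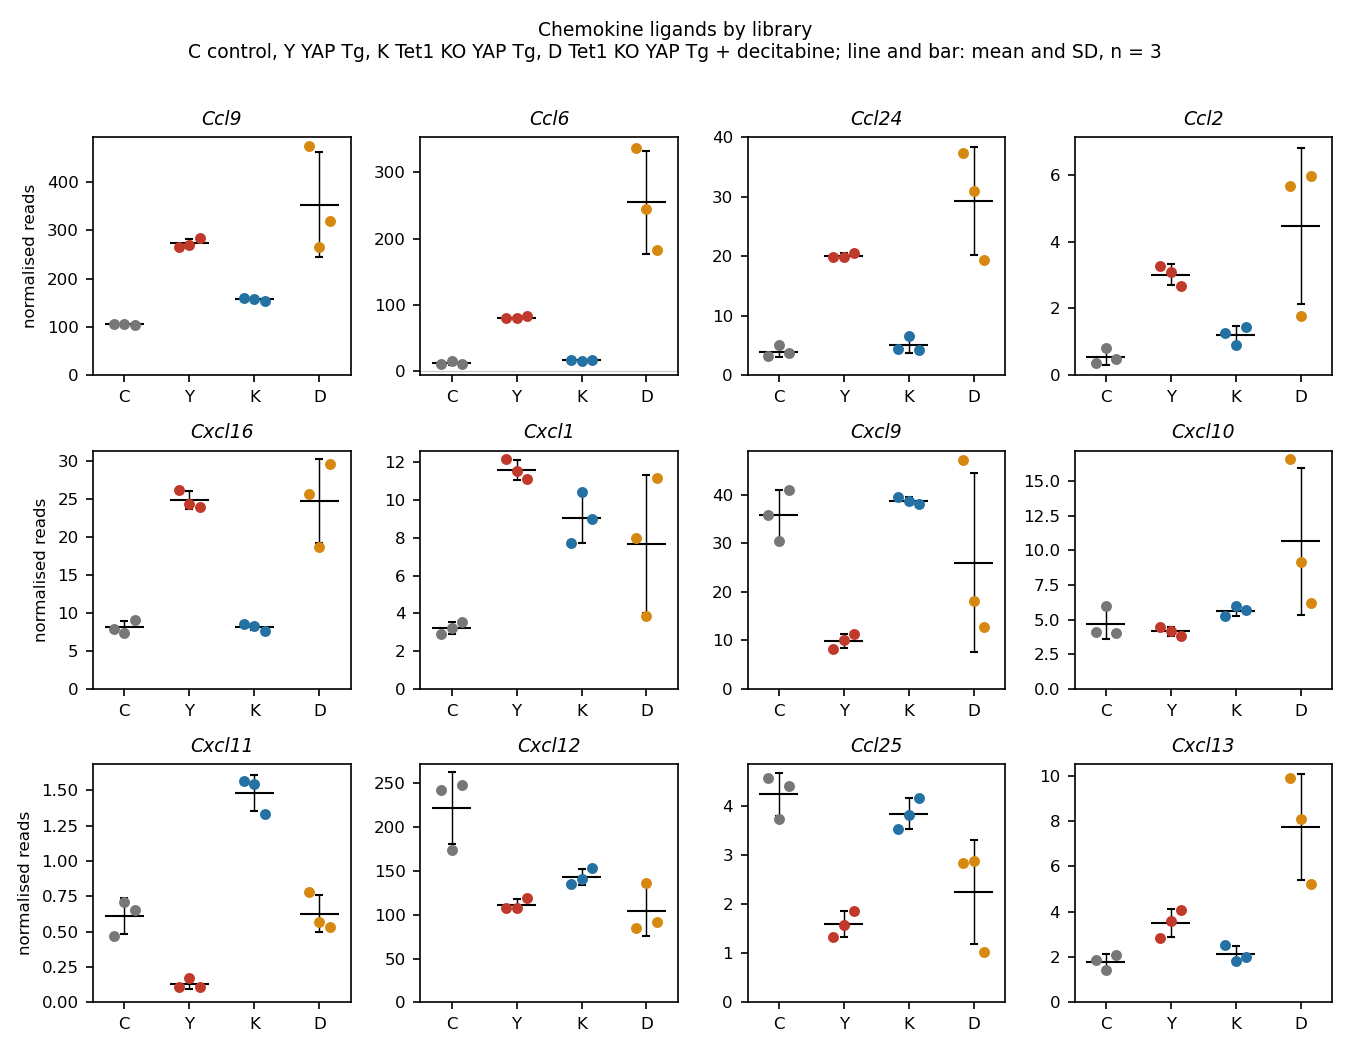
Levels of 12 ligand genes in normalised reads (linear axes from 0) in each library, with C for control, Y for YAP Tg, K for the knockout group and D for the knockout group with decitabine, and with the mean and SD of 3 libraries. Ccl9, Ccl6, Ccl24, Ccl2, Cxcl16 and Cxcl1 are higher in Y than in C, and Cxcl9, Cxcl11, Cxcl12 and Ccl25 are lower. The D libraries are the most spread out by SD, except for Cxcl12, where the C libraries are.

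Among receptors, the largest rise was that of Cx3cr1, the fractalkine receptor of monocytes and macrophages, which read 0.117, 0.4003 and 0.297 in control and 11.5, 11.2 and 11.7 in YAP Tg (log2 3.97 ± 0.16, adjusted p = 6.67e-10). Ccr2, the receptor of inflammatory monocytes, read 2.05, 2.002 and 3.38 and 23.5, 23.4 and 27.7 (log2 3.12 ± 0.15, adjusted p = 4.30e-09). Neither gene had an overlap between the groups, and Cx3cr1 went from 16 reads over the control group to 966 over the YAP Tg group, so its fold change rests on few control reads. Ccr1 read 0.117, 0.356 and 0.178 in control and 3.85, 2.78 and 2.55 in YAP Tg (log2 2.31 ± 0.19). Ccr3, the eotaxin receptor, read 0.0584, 0.222 and 0.119 and 2.81, 3.47 and 4.08 (log2 2.64 ± 0.17). Both entered the test only because of their YAP Tg libraries, so their values are given without a p. Cxcr4 read 1.403, 1.33 and 1.42 and 5.98, 6.01 and 6.49 (log2 1.82 ± 0.12, adjusted p = 6.25e-08). Again all YAP Tg libraries lay above all controls.

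Ccr1l1, a receptor-like gene next to Ccr1, read 0, 0.0445 and 0 in control and 0.612, 0.7904 and 0.6197 in YAP Tg (log2 1.19 ± 0.17; the control group held 1 read, so the fold depends on the 0.5 added). It too entered the test through the YAP Tg libraries alone. Xcr1, the receptor of cross-presenting dendritic cells, was called with a smaller log2 of 0.45 (adjusted p = 0.0151). Cxcr2, Cxcr3, Cxcr6 and Ccr9 did not pass the test. Cxcr2 read 1.29, 1.201 and 1.19 and 1.7999, 1.27 and 1.13 (adjusted p = 0.602), Cxcr3 had adjusted p = 0.183, Cxcr6 0.132 and Ccr9 0.483.

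**Figure D2:**
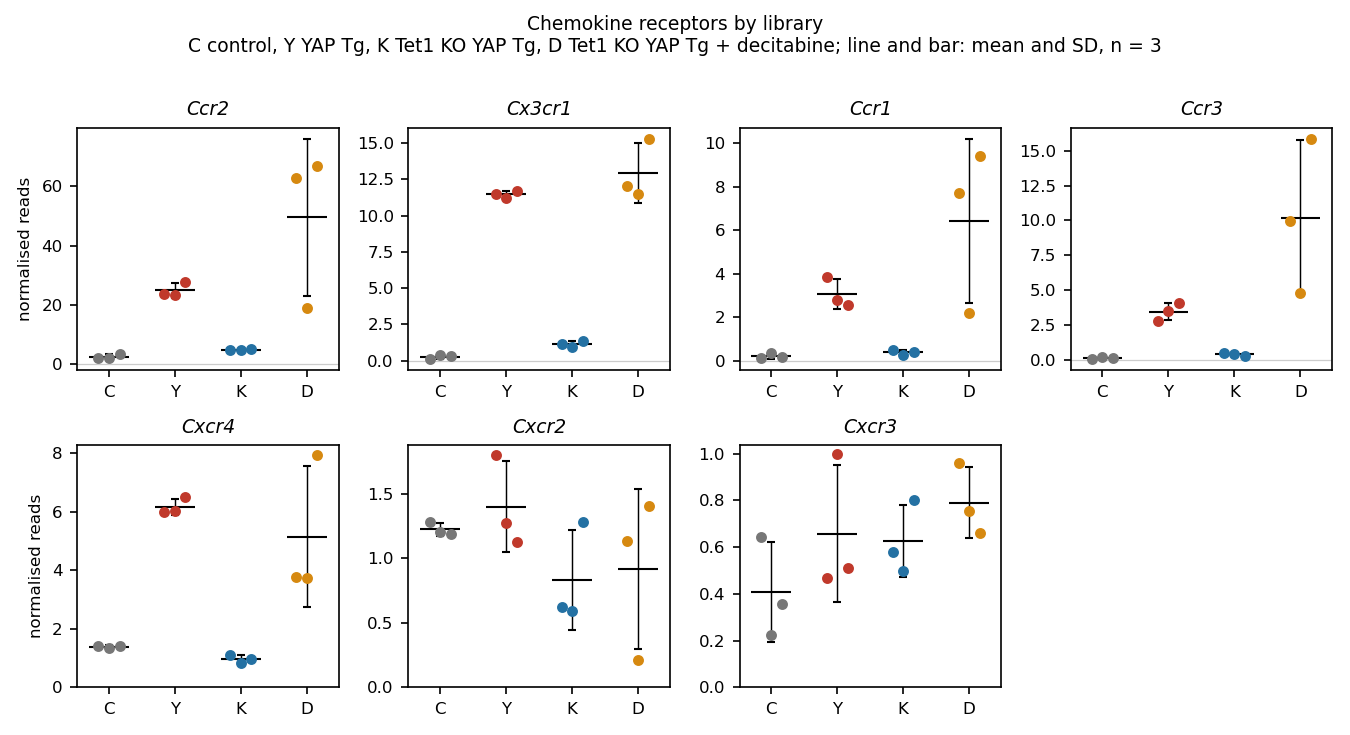
Levels of 7 receptor genes in normalised reads (linear axes from 0) in each library, grouped as C (control), Y (YAP Tg), K (the knockout group) and D (the knockout group with decitabine), with the mean and SD of 3 libraries. The first 5 receptors are higher in Y than in C and lower again in K, while C and Y overlap for Cxcr2 and for Cxcr3.

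Leukocyte markers moved with these genes. The 10 measured macrophage or Kupffer cell markers were all higher in YAP Tg than in control, and their summed level ran 436 to 573 in control, 2383 to 2419 in YAP Tg, 524 to 543 in Tet1 KO YAP Tg and 3239 to 3977 with decitabine. All 3 measured markers of inflammatory monocytes were higher, with sums of 5.202 to 6.85 in control and 20.001 to 20.999 in YAP Tg, and so were all 6 of neutrophils, with sums of 2.43 to 2.76 and 23.5 to 25.4. The sums overlapped between these groups for the 9 T or NK cell markers (5.32 to 6.72 and 6.19 to 7.42), of which 4 could be tested, with 2 higher and 1 lower. All 4 tested of 5 B cell markers (1.64 to 2.85 and 5.64 to 6.12) and 3 of 5 dendritic cell markers (9.18 to 10.3 and 14.1 to 14.9), with 1 lower, were higher. Markers of other cells moved as well. Of 5 markers of stellate cells or fibroblasts, stromal cells of the kind that make CXCL12, 3 were lower and 1 higher in YAP Tg, with sums of 332 to 397 in control and 247 to 259 in YAP Tg, and the largest change in Lrat (log2 -1.64). Of 5 endothelial markers 3 were higher and 1 lower (372 to 385 and 422 to 433), of 5 cholangiocyte markers 3 higher and 0 lower (49.6 to 61.1 and 1665 to 1692, led by Spp1 at log2 5.03), of 5 hepatocyte markers 0 higher and 3 lower (114102 to 134717 and 117583 to 120074, led by Cyp2e1 at log2 -6.36), and of 3 tested platelet markers 2 higher and 0 lower (2.63 to 3.26 and 8.46 to 9.62). The median log2 fold change over the 5 cholangiocyte markers was 0.45, far below that of Spp1. No measured marker of these lists was at 0 in all 12 libraries. The part of these cells in the chemokine results was not tested.

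The genes that carry the signal of chemokine receptors moved in the same direction. Of the 14 genes of a list of G proteins, arrestins, receptor kinases and effectors downstream of the receptors, 13 were higher in YAP Tg and 1 lower. The largest change was in Rgs1, a brake on G protein signalling in leukocytes (log2 3.52 ± 0.17, adjusted p = 3.28e-09), and the gene that was lower was Gnai3 (log2 -0.76, adjusted p = 3.90e-07). Of 13 tested genes among 14 components and targets of NF-kB, 9 were higher and 1 lower, led by Tnfaip3, a feedback inhibitor of the pathway (log2 2.70 ± 0.18, adjusted p = 5.38e-08). The gene that was lower was Nfkbia, the inhibitor IkB alpha (log2 -0.57, adjusted p = 1.82e-05). Among 8 tested of 9 enzymes that cut or shed chemokines, 7 were higher and 0 lower, led by Mmp12 (log2 4.04 ± 0.19, adjusted p = 2.25e-09). Of 10 tested inflammatory cytokines and their receptors 6 were higher and 3 lower, led by Il1b (log2 3.42 ± 0.15, adjusted p = 1.87e-09). Among the 11 measured atypical receptors and chemokines under other symbols, 5 were higher and 1 lower, led by Pf4, the platelet chemokine CXCL4 (log2 2.57 ± 0.28, adjusted p = 4.95e-06).

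Ligands were then set beside their receptors in 36 textbook receptor-ligand pairs. Both partners were tested in 16 pairs without decitabine. In YAP Tg against control, both partners were higher in 8 pairs (among them Ccr1 with Ccl5, Ccl6 and Ccl9, Ccr2 with Ccl2, Ccr3 with Ccl5 and Ccl24, and Cx3cr1 with Cx3cl1), and both were lower in 0. Of these pairs, 5 hold Ccr1 or Ccr3, whose passage of the filter through YAP Tg alone fixed their direction. The pair of Cx3cr1 with Cx3cl1 is limited in the same way by its ligand. The partners went opposite ways in 1 pair, Cxcr4 higher with Cxcl12 lower. Pairs share genes, so these counts are not independent of each other.

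When libraries of a group with nearly the same counts were added together, 11 of the 24 member calls in YAP Tg against control were left, all of them higher (among them Cxcr4, Cxcl16, Ccl9, Ccl6, Cxcl1, Ccl24, Cx3cr1, Ccr1, Ccr3 and Ccr2), and none of the 6 lower ones. The summed fit, like the later ones, also held the decitabine libraries. Its spread came from the control and decitabine libraries, because YAP Tg and the knockout group were each left with a lone summed library. Summing and this change of spread cannot be told apart in the calls lost. Single libraries decided the calls of Ccl19, lost without control library 1 or YAP Tg library 1 or 2 (adjusted p = 0.0689 to 0.0984), and Xcr1, lost without YAP Tg library 1 or 2 (adjusted p = 0.0585 to 0.0685). Ccr1, Ccr1l1 and Ccr3 missed the filter and were not tested when any 1 of the 3 YAP Tg libraries was left out.

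On the Tet1 -/- genotype, most members that were higher in YAP Tg were lower than there, and most that were lower were higher. Against YAP Tg, 24 of 31 tested members were called in the knockout group, 6 higher and 18 lower, where 67.4% of all 13730 tested genes were called, 33.4% higher and 34% lower. The members' share called was 77.4%, with 58.1% lower and 19.4% higher. Of the 12 receptors tested, 9 were lower and 0 higher, and of the 19 ligands 9 were lower and 6 higher. The median log2 fold change was -0.53 over the tested members and 0.00 over all tested genes. This comparison shares its YAP Tg libraries with the preceding one, so that part of any mirror image comes with the design, and the values are given side by side. Of the 18 members raised in YAP Tg, 17 were lower in the knockout group than in YAP Tg, as were 3914 of the 4951 raised genes in the whole table (79.1%), and the exception was Ccl5. Ccr1, Ccr1l1 and Ccr3 are again among the lower receptors, and they were tested only because of their YAP Tg libraries. The same limit holds for Cx3cl1 among the lower ligands.

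In the knockout group, Cxcl16 overlapped control and Ccl9 lay above it. Cxcl16 read 8.49, 8.27 and 7.68 (log2 -1.55 ± 0.09, adjusted p = 1.97e-08 against YAP Tg; adjusted p = 0.928 against control). Ccl9 read 160.2, 159 and 153 (log2 -0.79 ± 0.05, adjusted p = 2.45e-08 against YAP Tg; log2 0.57 ± 0.05, adjusted p = 3.10e-06 against control). Every Ccl9 library of this group lay between the control and the YAP Tg libraries. Ccl6 read 16.6, 15.4 and 16.1 (log2 -2.29, adjusted p = 2.74e-09 against YAP Tg; log2 0.42, adjusted p = 0.00794 against control). Ccl24 read 4.43, 6.68 and 4.27 (log2 -1.90, adjusted p = 1.23e-06 against YAP Tg; adjusted p = 0.1704 against control). The Ccl6 libraries again lay above all controls by a small margin, while those of Ccl24 overlapped them. Cx3cl1 read 0.313, 0.318 and 0.586 (log2 -0.91 against YAP Tg, without a p because of the filter, and adjusted p = 0.0911 against control). Ccl2 read 1.25, 0.908 and 1.44 (log2 -1.05, adjusted p = 3.12e-04 against YAP Tg; log2 0.72, adjusted p = 0.00987 against control).

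Cxcl1 stayed nearer its YAP Tg level, at 7.73, 10.4 and 9.01 (log2 -0.35 ± 0.12, adjusted p = 0.0185 against YAP Tg; log2 1.35 ± 0.12, adjusted p = 4.59e-06 against control). Of the difference between the YAP Tg and control means, 69.6% was left for Cxcl1 in the knockout group, against 30.8% for Ccl9, 26.7% for Ccl2, 5.97% for Ccl6 and 0.312% for Cxcl16. Over the 18 raised members this share had a median of 7.84% and ran from -26.04% (Cxcl14, below control) to 69.6%. The same share was 2.29% for the summed macrophage markers and -0.446% for the summed neutrophil markers. These shares are descriptions without a test.

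Among receptors, Cx3cr1 read 1.16, 0.954 and 1.39 in the knockout group (log2 -2.85 ± 0.16, adjusted p = 1.52e-08 against YAP Tg; log2 1.12 ± 0.16, adjusted p = 2.28e-04 against control). Ccr2 read 4.74, 4.77 and 4.96 (log2 -2.25 ± 0.15, adjusted p = 9.54e-08; log2 0.87 ± 0.15, adjusted p = 0.001095). Both lay between the groups, with no overlap on either side. Cxcr4 read 1.12, 0.818 and 0.9597 (log2 -2.19 ± 0.12, adjusted p = 1.42e-08 against YAP Tg; log2 -0.37 ± 0.12, adjusted p = 0.0308 against control), which put it below control. Ccr1 read 0.492, 0.273 and 0.427 (log2 -1.98 against YAP Tg; adjusted p = 0.195 against control). Ccr3 read 0.447, 0.409 and 0.267 (log2 -2.17 against YAP Tg; adjusted p = 0.05295 against control). Cxcr2 read 0.626, 0.5905 and 1.28 (log2 -0.53, adjusted p = 0.0352 against YAP Tg), with library 3 inside the YAP Tg range.

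The ligands that were lower in YAP Tg were mostly higher again. Cxcl9 read 39.5, 38.7 and 38.1 in the knockout group (log2 1.93 ± 0.12, adjusted p = 3.16e-08 against YAP Tg; adjusted p = 0.416 against control). Cxcl11 read 1.56, 1.54 and 1.33 (log2 1.65 ± 0.15, adjusted p = 1.44e-06 against YAP Tg; log2 0.84 ± 0.15, adjusted p = 0.00133 against control), which was above the controls as well. Cxcl10 read 5.28, 5.995 and 5.705 (log2 0.40 ± 0.14, adjusted p = 0.0233 against YAP Tg; adjusted p = 0.1598 against control). All 3 CXCR3 ligands were thus higher than in YAP Tg, while Cxcr3 itself read 0.581, 0.4996 and 0.7998 and was not called (adjusted p = 0.943). Ccl25 read 3.53, 3.82 and 4.16 (log2 1.06 ± 0.13, adjusted p = 1.86e-05 against YAP Tg; adjusted p = 0.485 against control). Cxcl12 read 135, 141 and 154, slightly above YAP Tg (log2 0.36 ± 0.11, adjusted p = 0.0148) and below control (log2 -0.61 ± 0.11, adjusted p = 0.00156). Ccl19 read 0.447, 0.772 and 1.17 (log2 0.86, adjusted p = 0.00607 against YAP Tg). Ccl27a was not called against YAP Tg (adjusted p = 0.454). In all, 5 of the 6 ligands lower in YAP Tg were higher in the knockout group than in YAP Tg.

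Of the 16 pairs with both partners tested, both were lower than in YAP Tg in 6 (Ccr1 with Ccl6 and Ccl9, Ccr2 with Ccl2, Ccr3 with Ccl24, Cx3cr1 with Cx3cl1, and Cxcr2 with Cxcl1), of which 3 hold Ccr1 or Ccr3, and Cxcr4 and Cxcl12 went opposite ways, here with the receptor lower. The filter fixed the direction of Cx3cl1 as well. Of the 14 receptor signalling genes 13 were lower and 1 higher than in YAP Tg, with Rgs1 the largest (log2 -3.87 ± 0.17, adjusted p = 1.78e-09). Of 13 tested NF-kB genes 10 were lower and 0 higher, with Nfkbie the largest (log2 -2.31, adjusted p = 2.45e-08). Of 8 tested chemokine-processing enzymes 7 were lower and 1 higher, with Mmp12 the largest (log2 -3.83), and of 11 atypical receptors and other chemokines 5 were lower and 2 higher, with Pf4 the largest (log2 -2.37). All 10 macrophage, 3 monocyte, 6 neutrophil and 4 tested B cell markers were lower, as were 1 of 4 tested T or NK cell markers and 3 of 5 dendritic cell markers. The sums in the knockout group were 524 to 543 for macrophages, 6.34 to 6.796 for monocytes, 2.35 to 2.59 for neutrophils, 4.87 to 5.54 for T or NK cells, 0.999 to 1.5995 for B cells and 8.76 to 10.1 for dendritic cells. Stellate cell or fibroblast markers were higher in 4 of 5 and lower in 0 (sums of 367 to 371), endothelial markers lower in 3 of 5 and higher in 0 (357 to 365), cholangiocyte markers higher in 2 and lower in 2 of 5 (312 to 329), hepatocyte markers higher in 3 and lower in 2 of 5 (58406 to 60665) and platelet markers lower in 2 of 3 (2.45 to 3.13). Of 10 tested cytokines and their receptors 6 were lower and 1 higher. Their part in the chemokine results was not tested.

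Against control, 11 of 31 tested members were called in the knockout group, 8 higher and 3 lower, where 39% of all 13730 tested genes were called, 20.2% higher and 18.8% lower. The members' share called (35.5%) lay near that background. Among the 18 members raised in YAP Tg, 7 were both lower than in YAP Tg and still above control (among them Ccl2, Ccl6, Ccl9, Cxcl1, Cx3cr1 and Ccr2). The other called members were Cxcl11, higher, and Cxcl12, Ccl27a and Cxcr4, lower. The median log2 fold change of the tested members was 0.23, against 0.02 over all genes. Of the 16 pairs, both partners were higher than in control in 1 (Ccr2 with Ccl2) and both lower in 1 (Cxcr4 with Cxcl12). Of the lists, receptor signalling had 2 higher and 1 lower of 14 against control, NF-kB 2 and 2 of 13, cytokines 1 and 3 of 10, processing enzymes 1 and 1 of 8, macrophage markers 1 and 0 of 10, B cell markers 0 and 1 of 4, endothelial markers 0 and 3, stellate markers 2 and 0, cholangiocyte markers 1 and 0 and hepatocyte markers 1 and 4 of 5 each. The other lists had 0 called against control.

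When nearly identical libraries were added together, 6 of the 24 calls against YAP Tg were left (Cxcr4, Cxcl16, Ccl6, Cxcl11, Ccl24 and Cx3cr1) and 0 of the 11 calls against control (limma; 3 of 30 members had an unadjusted p below 0.05, while edgeR on the separate libraries called 10 and DESeq2 9). Single libraries of YAP Tg or the knockout group decided, against YAP Tg, the calls of Cxcl1 (adjusted p = 0.06703 to 0.0874 without YAP Tg library 1 or knockout library 1), Cxcl10 (0.0533 to 0.0842 without library 2 or 3 of either group), Cxcl12 (0.0506 to 0.0614 without YAP Tg library 1 or 2 or knockout library 3), Cxcr2 (0.0635 to 0.162 without library 1 or 2 of either group) and Xcr1 (0.0576 to 0.0945 without YAP Tg library 1 or 2 or knockout library 1 or 3). Without any 1 of the YAP Tg libraries, Ccr1, Ccr1l1 and Ccr3 were not tested. Against control, the calls of Cxcr4 (adjusted p = 0.0509 to 0.105) and Ccl27a (0.0507 to 0.104) were each lost without any 1 of 7 libraries: control 1 or 3, YAP Tg 1 or 2 and knockout 2 or 3 for both, YAP Tg 3 for Cxcr4 and knockout 1 for Ccl27a.

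**Figure D3:**
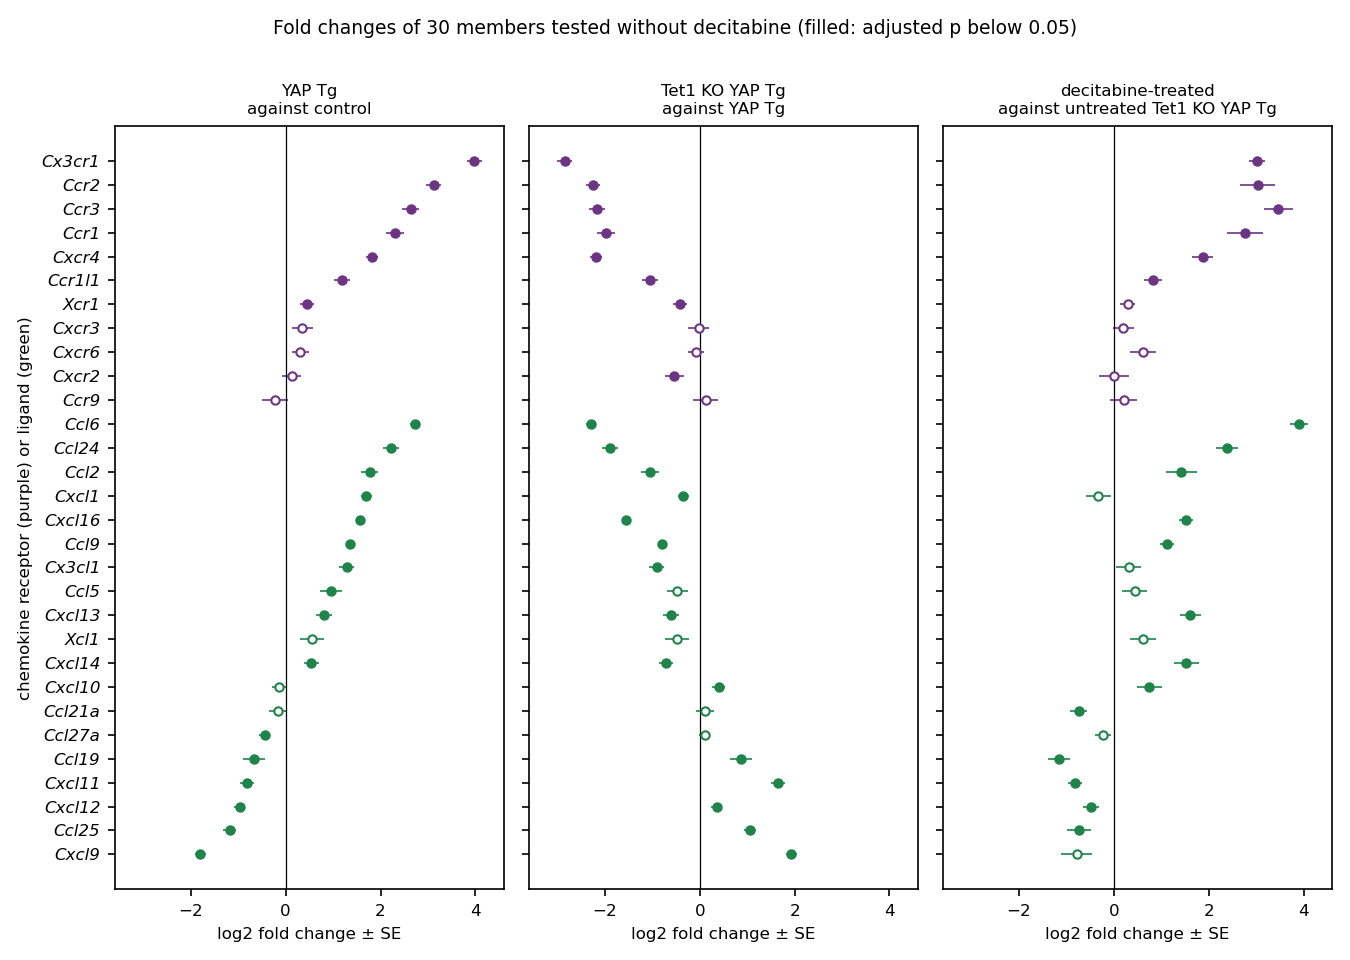
Log2 fold changes with SE (x axis) of 30 members tested without decitabine (y axis; receptors in purple, ligands in green) in 3 comparisons, filled where the adjusted p is below 0.05. The filled receptors lie to the right in YAP Tg against control, to the left in the knockout group against YAP Tg and to the right again with decitabine, and neighbouring panels share libraries.

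With decitabine on the Tet1 -/- genotype, Ccl6, Ccl9, Ccl24, Cxcl16, Ccr1, Ccr2, Ccr3, Cx3cr1 and Cxcr4 were higher than without it, while Ccl5 and Cx3cl1 were not called. The decitabine columns had been deposited in another unit, TPM, and were brought back to reads first, so for a single gene the treatment and the different processing cannot be told apart. Of 34 members that passed the filter over 12 libraries, 23 were called against the untreated knockout group, 18 higher and 5 lower, where 60.6% of all 13938 tested genes were called, 32.7% higher and 28% lower. The members' share called was 67.6%, with 52.9% higher and 14.7% lower. Of 13 receptors tested 8 were higher and 0 lower, and of 21 ligands 10 were higher and 5 lower. The higher ligands include Ccl4, which passed the filter only because of its decitabine libraries, where it was high. Cxcl2 and the receptor Ccr7 passed it only with decitabine library 3 beside YAP Tg libraries, so they too could only come out higher. Ccr1, Ccr1l1 and Ccr3 passed it through YAP Tg. None of their untreated libraries reached 0.5, which left little room for a lower value. The median log2 fold change was 0.69 over the tested members and 0.07 over all genes. Of the 18 members lower in the knockout group than in YAP Tg, 14 (77.8%) were higher with decitabine than without, as were 3167 of the 4664 genes lower in the knockout group in the whole table (67.9%). The decitabine and untreated knockout libraries are compared here, and the latter also entered the preceding comparison.

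On the log2(level + 0.5) scale the largest change was that of Ccl6, at 337, 245 and 182 normalised reads with decitabine against 16.6, 15.4 and 16.1 without (log2 3.90 ± 0.18, adjusted p = 1.40e-09), a scale that understates the change of low genes such as Ccr3. Its mean was 3.16 times that of YAP Tg. Per kilobase, Ccl6 had the highest level of all ligands in this group, 177 or 44.8% of the ligand sum, ahead of Ccl9 with 117 (29.7%). Ccl9 read 475, 265 and 320.4 (log2 1.12 ± 0.16, adjusted p = 4.12e-05). Ccl24 read 37.3, 30.9 and 19.4 (log2 2.38 ± 0.23, adjusted p = 1.42e-06), and Ccl2 5.68, 1.78 and 5.98 (log2 1.42 ± 0.33, adjusted p = 0.00233). All decitabine libraries lay above all untreated ones for these 4 ligands, with library 2 far below the other 2 for Ccl2.

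Ccl4, a CC chemokine that was too low to test without decitabine, read 0.0447, 0.136 and 0.15995 without and 0.603, 0.566 and 1.16 with decitabine (log2 1.03 ± 0.19). It passed the filter only because of its decitabine libraries, so its value is given without a p. Cxcl16 read 25.7, 18.7 and 29.7 (log2 1.52 ± 0.15, adjusted p = 1.45e-06). Cxcl13 read 2.55, 1.82 and 2.03 without and 9.898, 8.08 and 5.24 with decitabine (log2 1.61 ± 0.22, adjusted p = 2.83e-05). In these 3 genes the groups did not overlap, and Cxcl16 overlapped YAP Tg. Cxcl14 read 0.671, 0.681 and 0.586 and 1.42, 3.96 and 3.67 (log2 1.52 ± 0.26, adjusted p = 2.37e-04). Cxcl2, a CXCR2 ligand, rose from 3 to 46 reads over the groups (log2 0.90). It is given without a p, because it passed the filter only with decitabine library 3. Cxcl1, which shares the NF-kB element with Cxcl2, read 8.02, 3.88 and 11.2 with decitabine, overlapped the untreated libraries and was not called (log2 -0.33, adjusted p = 0.309). Cx3cl1 read 0.248, 0.512 and 1.32 with decitabine, overlapped the untreated libraries and was not called (log2 0.31, adjusted p = 0.321), and neither was Ccl5 (log2 0.44, adjusted p = 0.167).

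Of the receptors, those of the CC ligands and Cx3cr1 rose most. Ccr3 read 9.93, 4.77 and 15.9 with decitabine (log2 3.47 ± 0.31, adjusted p = 6.94e-07). Ccr2 read 62.97, 18.8 and 66.8 (log2 3.03 ± 0.36, adjusted p = 1.04e-05). Cx3cr1 read 12.1, 11.5 and 15.3 (log2 3.01 ± 0.17, adjusted p = 8.27e-09). Every decitabine library exceeded every untreated one, and for Cx3cr1 the values overlapped those of YAP Tg. Ccr1 read 7.73, 2.21 and 9.41 (log2 2.76 ± 0.37, adjusted p = 3.05e-05) and Cxcr4 3.76, 3.74 and 7.92 (log2 1.87 ± 0.22, adjusted p = 9.41e-06). Ccr1, Ccr2 and Ccr3 were lowest in decitabine library 2. Ccr1l1 read 0.0894, 0 and 0.107 without and 0.887, 0.323 and 0.371 with decitabine (log2 0.83 ± 0.20, adjusted p = 0.00301). Ccr7, the homing receptor of dendritic cells and naive T cells, was also called higher (log2 0.63, without a p for the same reason as Cxcl2).

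The CXCR3 ligands did not move together with decitabine. Cxcl10 read 16.6, 9.16 and 6.23 (log2 0.75 ± 0.26, adjusted p = 0.0252), Cxcl11 read 0.7805, 0.566 and 0.536 (log2 -0.82 ± 0.15, adjusted p = 4.85e-04), and Cxcl9 read 47.1, 18.1 and 12.8 and was not called (log2 -0.79, adjusted p = 0.05696). All 3 were highest in decitabine library 1, and for Cxcl9 that library lay above the untreated ones while the others lay below. The other ligands lower with decitabine were Ccl19 at 0.177, 0 and 0.0413 (log2 -1.15 ± 0.23, adjusted p = 8.20e-04), Ccl25 at 2.84, 2.88 and 1.03 (log2 -0.74 ± 0.25, adjusted p = 0.0222), Ccl21a (log2 -0.74, adjusted p = 0.00282) and Cxcl12 at 84.5, 137 and 91.6 (log2 -0.49 ± 0.17, adjusted p = 0.0254). The Cxcl12 groups overlapped.

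Both partners were tested in 20 pairs with decitabine. Both were higher in 5 (among them Ccr1 with Ccl6 and Ccl9, Ccr2 with Ccl2, and Ccr3 with Ccl24), and 3 went opposite ways with the receptor higher (Cxcr4 with Cxcl12, and Ccr7 with Ccl19 and Ccl21a). The filter fixed the direction of Ccl4 and Ccr7 wherever they stand in these pairs. Ccr1 and Ccr3 passed the filter through YAP Tg, but none of their untreated libraries reached 0.5. Of the 14 receptor signalling genes 13 were higher and 0 lower, with Rgs1 the largest (log2 3.22 ± 0.18, adjusted p = 7.40e-09). Of 13 tested NF-kB genes 11 were higher, with Tnfaip3 the largest (log2 2.60, adjusted p = 1.29e-07), and 1 was lower, Rela (log2 -1.57, adjusted p = 1.02e-05). Of the 9 chemokine-processing enzymes 6 were higher and 0 lower, with Mmp9 the largest (log2 4.74 ± 0.33, adjusted p = 5.65e-08), and of the 11 atypical receptors and other chemokines 6 were higher and 2 lower, with Pf4 the largest (log2 3.30 ± 0.33, adjusted p = 1.98e-06).

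Leukocyte markers were again higher. With decitabine, all 10 macrophage, all 3 monocyte, 5 of 6 neutrophil, 6 of 7 tested T or NK cell, 4 of 4 tested B cell and 3 of 5 dendritic cell markers were higher and 0 were lower. Their sums with decitabine were 3239 to 3977 for macrophages, 64.6 to 146 for monocytes, 8.94 to 51.5 for neutrophils, 6.19 to 13.7 for T or NK cells, 5.23 to 8.17 for B cells and 19.2 to 20.1 for dendritic cells. By library, the monocyte sums were 146, 68.1 and 64.6, the neutrophil sums 20.5, 8.94 and 51.5, and the T or NK cell sums 13.7, 11.9 and 6.19. Thus the monocyte sum was highest in library 1, the neutrophil sum lowest in library 2 and highest in library 3, and the T or NK cell sum lowest in library 3. Of the other cells, 3 of 5 stellate cell or fibroblast markers were lower and 0 higher (sums of 191 to 278), 3 of 5 endothelial markers higher and 1 lower (327 to 531), 2 of 5 cholangiocyte markers higher and 2 lower (858 to 2680.4), 1 of 5 hepatocyte markers higher and 2 lower (103005 to 122984) and 3 of 3 tested platelet markers higher (8.81 to 22.8). Of 11 tested cytokines and their receptors 10 were higher and 0 lower. Their part in the chemokine results was not tested.

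When nearly identical libraries were added together, 14 of the 23 member calls with decitabine were left, 13 of them higher, and 15 of the 23 in a fit of the decitabine and untreated libraries alone. With the libraries added together, Ccl2, Cxcl11, Cxcl10, Cxcl12 and Ccl25 were lost and Ccr7, Ccl21a, Cxcl2 and Ccr1l1 were not tested. In the fit of both groups alone, these 4 and Ccl19 were not tested. That fit called 15 of 29 tested members and 6948 of 13378 tested genes. The calls of Cxcl10, Cxcl12 and Ccl25 were lost under both, and also without single libraries: Cxcl10 without untreated library 1 or 3 or decitabine library 1 (adjusted p = 0.0557 to 0.0824), Cxcl12 without untreated library 2 or 3 or decitabine library 1 or 3 (0.0559 to 0.0887), Ccl25 without untreated library 2 or 3 or decitabine library 3 (0.0527 to 0.0663), and Ccr7 without untreated library 1 (0.0925). Ccr7 and Cxcl2 also missed the filter without YAP Tg library 1 or decitabine library 3, Ccr7 without YAP Tg library 3, Cxcl2 without YAP Tg library 2 and Ccl21a without control library 1 or 3 or untreated library 2. For Cxcl10 the log2 fold change fell from 0.75 to 0.39 without decitabine library 1, and for Ccl25 it was -0.37 without decitabine library 3.

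The authors' deposited table gives other fold changes for this comparison, because it sets TPM directly against scaled reads. Over 4116 genes with mean values of at least 20, the fold change in the authors' deposited table differed from the log2 ratio of the deposited columns by 0.0840 on average with an SD of 0.00672. TPM is divided by gene length and scaled reads are not, and chemokine genes are short, with a median recovered length of 1711 bases for the 34 tested members against 2543 over all genes. Most short members came out higher in the authors' deposited table than here, although Ccl19 and Ccl21a, at 720 and 580 bases, differed by -0.21 and 0.19 only. For Cxcl1 (949 bases) the authors' deposited table gives log2 1.13 (FDR 0.0118), where the recovered reads gave -0.33. For Ccl5 (531 bases) the authors' deposited table gives log2 2.73 (FDR 0.00121), where the recovered reads gave 0.44 and no call. For Cxcl12, the longest at 7161 bases, the authors' deposited table gives log2 -1.97, where the recovered reads gave -0.49. The sign differed from the authors' deposited table for 6 of 34 members. Part of the gap in genes with few reads comes from the 0.5 added before the logarithm here.

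**Figure D4:**
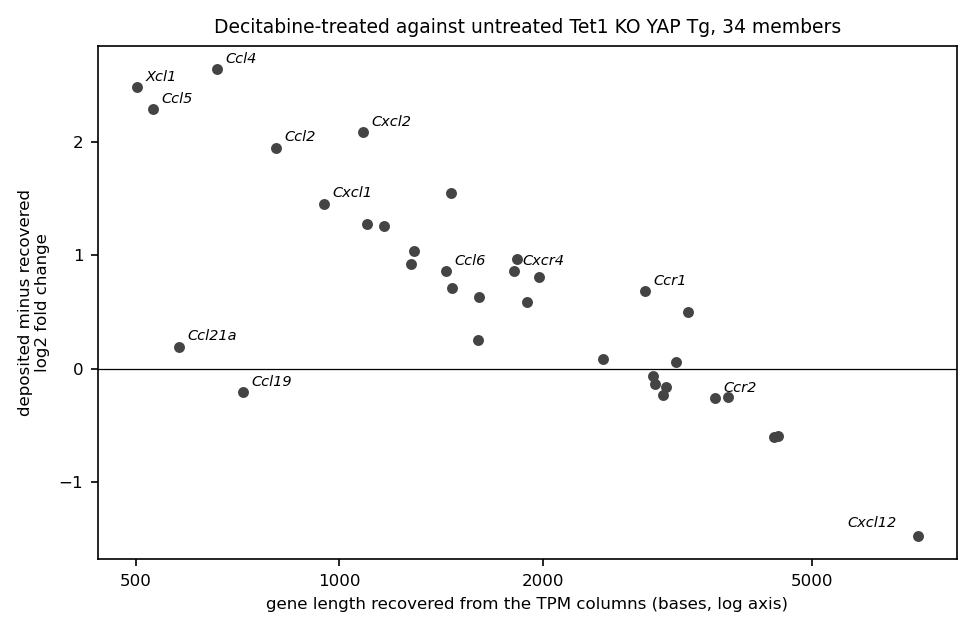
Fold change in the authors' deposited table minus the fold change from recovered reads (y axis, log2) against the recovered gene length (x axis, bases, log axis), for decitabine-treated against the untreated knockout group and the 34 tested members. Short genes such as Ccl4, Xcl1 and Ccl5 lie over 2 above the line, Ccl19 and Ccl21a near it, and Cxcl12, the longest, lies 1.48 below it.

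The 21 members too low to be tested without decitabine, and the 18 too low with it, had few reads each. With no filter on low values, 31 of all 52 members were called in YAP Tg against control, 25 higher and 6 lower (59.6%, against 54.8% of all genes), 32 in the knockout group against YAP Tg, 6 higher and 26 lower (61.5%, against 51.9%), 11 in the knockout group against control, 10 higher and 1 lower (21.2%, against 27.3%), and 28 with decitabine, 23 higher and 5 lower (53.8%, against 47.9%). These shares, for both directions together, lay near the background, while those by direction lay further from it. In YAP Tg, 48.1% of members were higher and 11.5% lower, against 28.9% and 25.9% of all genes. In the knockout group against YAP Tg, 50% were lower and 11.5% higher, against 27.1% and 24.8%. Against control, 19.2% were higher there and 1.92% lower, against 13.9% and 13.4%. With decitabine, 44.2% were higher and 9.62% lower, against 25.7% and 22.2%. Ccl3, a ligand of CCR1, read 0.0584, 0 and 0.0594 in control, 0.648, 0.412 and 0.109 in YAP Tg, 0.0894, 0.182 and 0.213 in the knockout group and 0.461, 0.3502 and 0.619 with decitabine. Ccl7, a CCR2 ligand beside Ccl2, read 0, 0.0445 and 0.0594, 0.324, 0.241 and 0.401, 0.134, 0.0908 and 0.15995 and 1.28, 0.3502 and 0.908 in the same order. Ccl28, a mucosal ligand of CCR10, read 0.0584, 0.133 and 0.0594, 0.504, 0.481 and 0.656, 0, 0 and 0.0533 and 0, 0.215 and 0. Ccl7 was thus higher in every YAP Tg and decitabine library than in any control, and Ccl28 was highest in YAP Tg. Ccl3 was likewise above every control, but its YAP Tg library 3 lay inside the range of the knockout group. Cxcl17 had 0 reads in control and 13 in YAP Tg, at least 2.86-fold higher when the floor is set at 3 reads over the group, and this covers counting error only. The levels of Ccl1, Ccl8, Ccl20, Ccl26, Ccr6, Ccr8 and Ccr10 stayed at a few reads per library throughout.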

How the data were processed

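RNA was measured in 12 liver libraries of 4 groups, and 24 other samples of the series were not analysed here. The submitters' processing notes name TopHat2, featureCounts, edgeR and mm10 without versions. The deposited values of the 9 columns without decitabine are a scaled signal, in which 100% of non-zero values up to 2000 reads were whole multiples of 1 read (tolerance 0.02). The deposited decitabine columns are TPM. The same table holds the authors' log2 fold changes and log2 expression, their likelihood ratio score, and their p-values and q-values, per the file headers. From the TPM, whole reads and gene lengths were recovered for 17087 of 17105 genes (99.9%). On simulated columns, 93.0% of 13649 genes came back exactly, 5.21% were a factor of 2 too small, 0.996% a factor of 3 too small and 0.769% otherwise off, so single decitabine levels can be too low by such a factor. Lengths are certain for 12 members. Recovered reads were scaled with TMM factors.

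Tests used limma 3.58.1 in R 4.3.3 with an intensity trend on log2(level + 0.5), the 9 libraries without decitabine in one fit and all 12 in another for decitabine, after a filter of 0.5 in at least 3 libraries, with two-sided p-values adjusted by Benjamini and Hochberg over all genes tested. In simulated YAP Tg against control data on 13634 genes, 93% of 100 genes changed by log2 1 and 100% of 100 genes changed by log2 2 were found, with 20 false calls. Alternatives were edgeR 4.0.16 and DESeq2 1.42.0 on recovered reads, other scalings, pseudocounts and filters, a replicate block, libraries left out and nearly identical libraries (extra coefficient of variation under 0.05) added together. Strand use in counting is not given in the sources used here, so overlapping genes such as Cxcl16 with Zmynd15, Ccl3 with Ccl4, Cxcr6 with Fyco1 and Cxcl10 or Cxcl11 with Art3 cannot be told apart. Intervals and floors cover counting error only. Every library's value was printed for members with a mean of at least 5 in a group or called with a log2 change of at least 1. The members and lists were chosen with earlier results of these data known. The values of 1 member are not reported here, although counts and sums include it.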

Additional observations from a re-analysis of the deposited data

How the results depend on the processing

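Depth limits the 21 members that missed the filter on low values, and small groups of nearly identical libraries limit the rest. When libraries of a group that differed by an extra coefficient of variation under 0.05 were added together, so that a lone summed library is assumed to vary like the other groups, 11 members were called in YAP Tg against control (all genes 2594), 6 in the knockout group against YAP Tg (1253), 0 in the knockout group against control (39) and 14 with decitabine (3571), and fewer samples entered each fit. The decitabine libraries entered all of these summed fits, and the spread came from the control and decitabine libraries alone. A fit of decitabine-treated and untreated libraries alone, chosen after seeing the data, called 15 of 29 tested members and 6948 of 13378 tested genes. Correlations of same-numbered libraries between groups ran from -0.255 to 0.237. Differently numbered libraries were not compared, so whether the numbers pair the samples was not settled. With the number as a replicate block, 24, 24, 10 and 23 members and 9653, 9246, 5253 and 8275 genes were called in the same order. The block lost 1 member call, that of Ccl27a in the knockout group against control. Leaving out each library gave 19 to 26, 17 to 25, 9 to 14 and 20 to 25 member calls, and 8696 to 10292, 8201 to 10236, 4032 to 7488 and 7426 to 9037 calls over all genes. The other alternatives (pseudocounts of 0.1 and 1, no filter, a filter at 1, DESeq2 size factors, edgeR and DESeq2 on recovered reads) kept each count within 1.5 times its value. Of single member values over all alternatives, 2278 were counted as unchanged, 106 lost the call and 23 gained one. Of the values called in the main fit, 0 reversed. The unchanged include any value that was not called in the main fit and changed sign. For all calls lost, unless fewer samples entered the fit, the cause was not tested.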
